A study of Mus musculus with 8 samples.

Results

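The 3 D cyclin genes (Ccnd1, Ccnd2 and Ccnd3), the 5 genes of CDK inhibitors Cdkn1a, Cdkn1b, Cdkn2a, Cdkn2b and Cdkn2c, and the p53 control genes Trp53 and Mdm2 were followed in 8 mouse RNA-seq libraries. They are 10 of the 46078 Ensembl gene IDs listed in the deposited counts, and were identified by their IDs in GENCODE M21. They were chosen for their place in cell cycle exit by a rule that uses no measured value, though with earlier results of these data known. All 10 passed the filter of a mean count above 10. Cdkn1c, an imprinted gene of the same inhibitor family, was left out of the set.

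The libraries form 4 groups of 2. The tcESCs are male (XY) C57BL/6 ESCs with the tesco-cfp reporter, in which an enhancer of Sox9 drives CFP, and were kept in 2iLIF, that is LIF with the MEK inhibitor PD0325901 and the GSK3 inhibitor CHIR99021. The tc;Sf1ESCs (XY;tesco-cfp;Sf1) are a G418-selected clone of that line, grown from a single colony, with constitutive expression of mouse Sf1, the gene Nr5a1. The SCLCs are CFP-positive cells sorted at day 12 of a culture of the tc;Sf1ESC clone that passed through CHIR99021 and TTNPB (a retinoid agonist) and then CHIR99021, BMP7 and FGF9. The todPGCLCs are cells positive for both GFP and a surface marker, which the methods name in different places as SSEA1 and as CD49f, sorted at day 6 from organoids in which EpiLCs of another ESC line, XY;Prdm1-gfp, were mixed with somatic cells made from the tc;Sf1ESCs. That second ESC line was not analysed here, so line, culture and cell state cannot be told apart in any comparison of todPGCLCs. Between SCLCs and the ESC lines, culture medium and cell sorting differed together with cell state, and these cannot be told apart either. The tesco-cfp reporter and the XY genotype are shared by tcESCs, tc;Sf1ESCs and SCLCs, and the Sf1 construct by the last 2 of these. The study's methods describe its experiments as replicated biologically, with technical repeats on instruments, but the labels do not say which separate cultures the libraries of a group came from, so p-values measure the spread between these libraries only, which may be technical.

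D cyclins bind CDK4 and CDK6 and phosphorylate RB, which releases E2F factors and lets a cell pass from G1 into S phase. The INK4 inhibitors (p16, p15 and p18, from Cdkn2a, Cdkn2b and Cdkn2c) bind CDK4 and CDK6 themselves, whereas the CIP/KIP inhibitors (p21 and p27, from Cdkn1a and Cdkn1b) mainly block CDK2 complexes. p53 turns on Cdkn1a and its own antagonist Mdm2, an E3 ligase that marks p53 for degradation, and the Arf product of Cdkn2a holds MDM2 in check. In the fetal testis, Sertoli cells divide until puberty and germ cells enter arrest in G1, so both lineages are known for regulated exit from the cell cycle.

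Counts on genes ranged from 25411033 to 30680191 per library, and 3 counts correspond to 0.0978 to 0.118 CPM (a gene's counts per 1000000 counts on genes). Such a limit covers counting error only. Nr5a1 had 1 and 0 counts in tcESCs, 52 and 30 in tc;Sf1ESCs, 341 and 535 in SCLCs and 6 and 5 in todPGCLCs. The 12 Sertoli cell markers summed to 15.1 to 19.5 CPM in the ESC libraries, 481 to 486 CPM in SCLCs and 121 to 148 CPM in todPGCLCs, with Fshr at 0 counts in SCLCs. The 11 visceral endoderm markers summed to 1811 and 3284 CPM in SCLCs against 8.70 to 38.5 CPM in the other groups, and the 7 trophectoderm markers to 733 and 927 CPM in SCLCs against 29.3 to 195 CPM elsewhere. The 8 ESC markers stood at 5853 to 6326 CPM in the ESC libraries, 4568 to 4737 CPM in todPGCLCs and 747 to 994 CPM in SCLCs. The 9 PGC markers summed to 1097 and 1098 CPM in todPGCLCs and 416 to 574 CPM in the other groups, with none of them at 0. The 6 steroidogenic markers stayed between 7.92 and 20.02 CPM in all 8 libraries. The part of these other cell types' RNA in the results on SCLCs and todPGCLCs was not tested, and in bulk samples fewer cells of a type and less RNA per cell cannot be told apart.

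The 4 groups differed by over 2-fold in Ccnd1 and Ccnd2 (5 of 6 comparisons each), Cdkn1a and Cdkn2c (4 each) and Cdkn1b and Trp53 (3 each), whereas Ccnd3 and Mdm2 passed the 2-fold limit in none of the 6 comparisons. A gene was called with a fold change above 2 and an adjusted p under 0.05 in edgeR's quasi-likelihood test. The 2 libraries of a group lay close together for most of the genes. The absolute log2 difference between replicates had a median over the 10 genes of 0.08 in tcESCs, 0.04 in tc;Sf1ESCs, 0.22 in SCLCs and 0.11 in todPGCLCs, where the medians over all 16707 genes tested were 0.11, 0.07, 0.23 and 0.15. The widest gaps were those of Trp53 in SCLCs (0.47) and Ccnd1 in todPGCLCs (0.68).

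**Figure D1:**
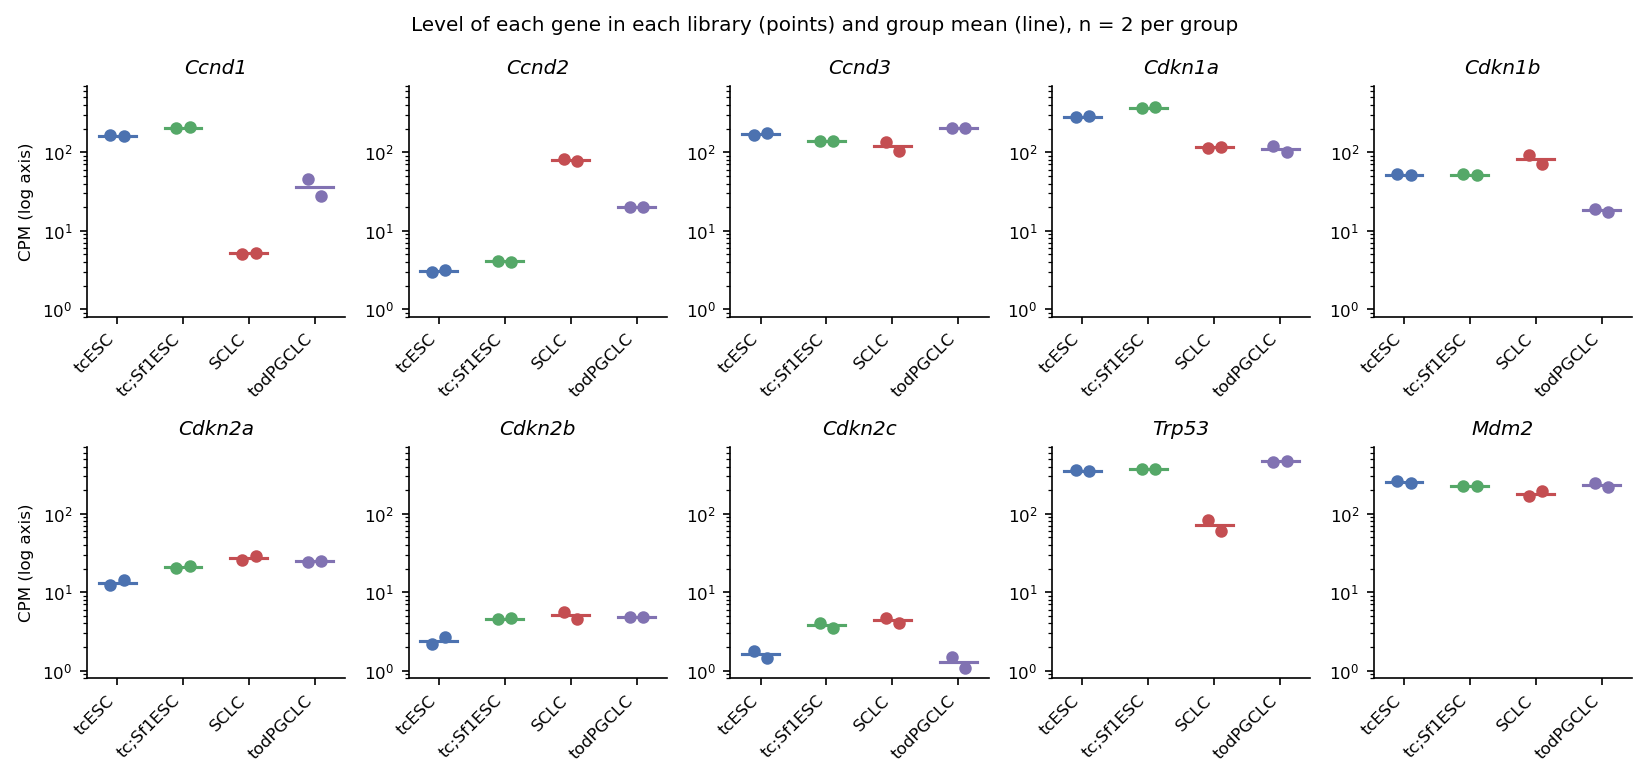
Level of each of the 10 genes in CPM on a log axis, in tcESCs, tc;Sf1ESCs, SCLCs and todPGCLCs, with a point for each library and a line at the mean of the 2 libraries. Ccnd1 ran from 209 CPM in a tc;Sf1ESC library down to 5.02 CPM in an SCLC library, Ccnd2 ran from 2.95 CPM in a tcESC library up to 81.0 CPM in an SCLC library, and Ccnd3 stayed between 104 and 206 CPM in all 8 libraries.

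Ccnd1 encodes cyclin D1, the D cyclin that mitogen signalling is best known to induce (chr7:144929931-144939925, GRCm38, minus strand). Its level was 167 and 159 CPM in the tcESC libraries, 203.5 and 209 CPM in tc;Sf1ESCs, 5.02 and 5.26 CPM in SCLCs, and 45.1 and 28.1 CPM in todPGCLCs. The order was SCLC, todPGCLC, tcESC and tc;Sf1ESC from low to high, no 2 groups overlapped, and all 3 pairs of neighbours passed the adjusted p limit in the fits reported. In SCLCs Ccnd1 fell 38.7-fold against the tc;Sf1ESCs from which they were made (log2 fold change -5.27 ± 0.079 SE, edgeR adjusted p = 5.78e-08) and 30.3-fold against tcESCs (-4.92 ± 0.079, adjusted p = 5.05e-08). In todPGCLCs it fell 4.68-fold against tcESCs (-2.23 ± 0.18, edgeR adjusted p = 1.29e-05) and 5.98-fold against tc;Sf1ESCs (-2.58 ± 0.18, adjusted p = 4.99e-06). Levels were also lower in SCLCs than in todPGCLCs (-2.70 ± 0.21, edgeR adjusted p = 6.23e-06). Between the ESC lines the difference was 1.28-fold, higher in tc;Sf1ESCs (0.35 ± 0.061, edgeR adjusted p = 0.00515), and not called. With all 8 libraries in the fit, as used for todPGCLCs, this difference did not pass the limit (edgeR adjusted p = 0.138). The exons of Ccnd1 share 1100 of 4709 bases with LTO1 on the opposite strand, and LTO1 held 338 to 670 counts per library, with its highest counts in SCLCs.

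Ccnd2 encodes cyclin D2, a D cyclin used by gonadal somatic cells and by spermatogonia among others (chr6:127125162-127152193, minus strand). It stood at 2.95 and 3.19 CPM in tcESCs, 4.13 and 4.01 CPM in tc;Sf1ESCs, 81.0 and 78.6 CPM in SCLCs, and 19.86 and 19.99 CPM in todPGCLCs. The groups did not overlap, the order from low to high was tcESC, tc;Sf1ESC, todPGCLC and SCLC, and every neighbouring pair passed the adjusted p limit. Ccnd2 rose 20.3-fold in SCLCs against tc;Sf1ESCs (log2 fold change 4.34 ± 0.095 SE, edgeR adjusted p = 1.20e-07) and 27.0-fold against tcESCs (4.76 ± 0.098, adjusted p = 1.10e-07). It rose 6.15-fold in todPGCLCs against tcESCs (2.62 ± 0.10, edgeR adjusted p = 3.63e-07) and 4.60-fold against tc;Sf1ESCs (2.20 ± 0.097, adjusted p = 5.73e-07). SCLCs exceeded todPGCLCs 4.39-fold (2.14 ± 0.085, edgeR adjusted p = 1.76e-07). Over the 8 libraries, which come from 4 groups, Pearson's r between the log2 CPM of Ccnd1 and Ccnd2 was -0.986.

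Ccnd3 encodes cyclin D3, which is widespread in differentiated tissues (chr17:47505051-47599691, plus strand). It measured 165 and 175 CPM in tcESCs, 141 and 139 CPM in tc;Sf1ESCs, 134 and 104 CPM in SCLCs, and 206 and 203 CPM in todPGCLCs. The groups lay next to each other without overlap, but no pair of neighbours in the order SCLC, tc;Sf1ESC, tcESC and todPGCLC passed the adjusted p limit in the fits reported (edgeR adjusted p = 0.195, 0.112 and 0.131). The value for the ESC lines shares its estimate of spread with SCLCs (SD 21.3 CPM in SCLCs, 1.57 in tc;Sf1ESCs and 7.44 in tcESCs). With only the 4 ESC libraries fitted, that pair passed (log2 fold change -0.27, edgeR adjusted p = 2.55e-06). The widest difference, between SCLCs and todPGCLCs, was 1.56-fold, lower in SCLCs (log2 fold change -0.65 ± 0.10 SE, edgeR adjusted p = 0.000535), and under the 2-fold limit. Bysl shares 361 exon bases with Ccnd3 on the opposite strand and held 722 to 3057 counts, and the pseudogene Ccnd3-ps held at most 9 counts in any library.

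Levels of the 3 D cyclins can be set side by side only per length, and the picture depends on the length used. With the length of all merged exons, Ccnd1 took 62.5 to 73.2% of the summed CPM per kb of the D cyclins in the 4 ESC libraries, Ccnd3 55.7 and 61.3% in SCLCs, and Ccnd3 66.8 and 74.1% in todPGCLCs. With the length of the longest principal transcript, which is 2113 bases for Ccnd3 where its merged exons hold 8775, Ccnd3 led in all 8 libraries, with 53.7 to 65.8% in the ESC libraries and 78.1 to 90.0% in the other groups. Under both lengths Ccnd2 took the smallest share in ESCs (0.379 to 0.735%) and in todPGCLCs (2.78 to 6.80%), while in SCLCs it took 34.5 and 39.1% by merged exons or 16.5 and 19.6% by principal transcript and Ccnd1 the smallest, 1.72 to 5.23%. The sum itself was lower in SCLCs, at 21.4 and 25.0 CPM per kb of merged exons against 54.1 to 60.6 CPM per kb in the ESC libraries, and at 63.2 and 77.8 against 122 to 126 CPM per kb of principal transcript. In todPGCLCs it was 31.2 and 35.2 CPM per kb by merged exons and 107 and 113 CPM per kb by principal transcript.

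**Figure D2:**
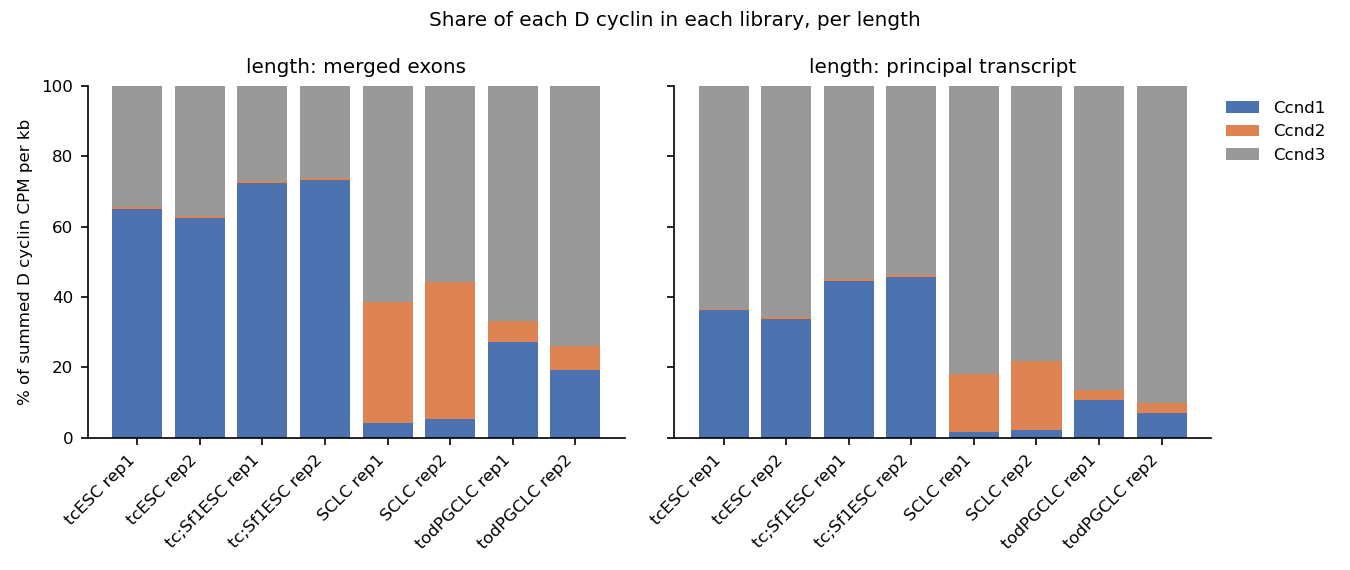
Share of Ccnd1, Ccnd2 and Ccnd3 in their summed CPM per kb, in percent, as 1 stacked bar per library, computed with the merged exons of each gene (left) and with its longest principal transcript (right). Ccnd2 is barely visible in the 4 ESC libraries and takes 34.5 and 39.1% (left) or 16.5 and 19.6% (right) in SCLCs, and the D cyclin with the largest share in ESCs differs between the panels.

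The kinases and pocket proteins downstream of the D cyclins were read from a list of 26 genes of G1 cyclin-CDK complexes and the RB-E2F axis, all of them tested. Its counts, and those of the lists that follow, stand beside shares of all genes tested that were called higher and lower, respectively, of 24.1 and 18.1% in SCLCs against tc;Sf1ESCs, 24.3 and 18.3% in SCLCs against tcESCs, 18.1 and 11.2% in todPGCLCs against tcESCs, 19.4 and 13.3% in todPGCLCs against tc;Sf1ESCs, 19.5 and 18.5% in SCLCs against todPGCLCs and 6.04 and 5.62% between the ESC lines. In SCLCs against tc;Sf1ESCs, 5 fell (Cdk6, Ccne1, E2f4, E2f2 and Cdk4), 19.2% of the list beside 18.1% of all genes, and none rose, with a median log2 fold change of -0.37 over the list and 0.02 over all genes tested. Cdk6, a kinase partner of the D cyclins, fell from 71.6 to 5.50 CPM (log2 fold change -3.65 ± 0.10 SE, edgeR adjusted p = 3.49e-07). Against tcESCs, 4 fell and 1 rose, with Cdk6 down from 103 CPM (-4.17 ± 0.11, edgeR adjusted p = 2.09e-07) and the pocket protein gene Rbl2 up from 10.9 to 27.5 CPM (1.40 ± 0.11, adjusted p = 2.85e-05). In todPGCLCs against tcESCs, 3 fell and 1 rose with a median of -0.27. Rb1, which encodes RB itself, rose from 21.4 to 90.1 CPM (1.998 ± 0.12, edgeR adjusted p = 3.27e-06), and Cdk6 fell to 34.7 CPM (-1.65 ± 0.10, adjusted p = 3.44e-06). Against tc;Sf1ESCs, 2 rose, led by Rb1 (2.14 ± 0.12, edgeR adjusted p = 1.99e-06), and 5 fell, led by Cdk2, the kinase partner of cyclins E and A, from 274 to 89.0 CPM (-1.71 ± 0.070, adjusted p = 4.03e-07). Between SCLCs and todPGCLCs, 2 were higher and 3 lower in SCLCs, with Cdk2 at 195 and 89.0 CPM (1.26 ± 0.069, edgeR adjusted p = 8.86e-07) and Ccne1, which encodes cyclin E1, at 18.7 and 135 CPM (-2.71 ± 0.069, adjusted p = 2.21e-08). None of the 26 was called between the ESC lines by edgeR or by DESeq2, while 14 had an unadjusted and 13 an adjusted p under 0.05 in edgeR's test without the fold limit (32.7% of all genes passed the latter).

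Cdkn2a (chr4:89274471-89294653, minus strand) encodes p16Ink4a and p19Arf from different first exons, 12427 bases apart between the RefSeq start sites, and counts per gene do not separate the products. Its level was 12.3 and 14.2 CPM in tcESCs, 20.1 and 21.5 CPM in tc;Sf1ESCs, 25.6 and 29.3 CPM in SCLCs, and 24.0 and 25.4 CPM in todPGCLCs. tcESCs were the lowest group and did not overlap with any other. Cdkn2a rose 2.17-fold in SCLCs against tcESCs (log2 fold change 1.12 ± 0.12 SE, edgeR adjusted p = 0.000128), a call that was lost in the test against a 2-fold change (glmTreat, adjusted p = 0.176). Its differences from tcESCs in tc;Sf1ESCs (0.66 ± 0.12, edgeR adjusted p = 0.00643) and todPGCLCs (0.83 ± 0.12, adjusted p = 0.000351) stayed under 2-fold, and tc;Sf1ESCs and todPGCLCs did not overlap but did not pass the adjusted p limit (adjusted p = 0.250).

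Cdkn2b, the neighbouring gene for p15Ink4b (chr4:89306299-89311039, minus strand), measured 2.16 and 2.67 CPM in tcESCs, 4.51 and 4.73 CPM in tc;Sf1ESCs, 5.66 and 4.61 CPM in SCLCs, and 4.83 and 4.90 CPM in todPGCLCs. Here too tcESCs were lowest. Among the other 3 groups SCLCs overlapped with both, tc;Sf1ESCs and todPGCLCs lay close together without overlap in CPM, and no pair passed the adjusted p limit. After TMM scaling the order of tc;Sf1ESCs and todPGCLCs was reversed, with means of 4.67 ± 0.174 and 4.62 ± 0.0381 (SD, n = 2). The rise in SCLCs against tcESCs was 2.21-fold (log2 fold change 1.14 ± 0.21 SE, edgeR adjusted p = 0.00178), and it was not called in the test against a 2-fold change (glmTreat, adjusted p = 0.258) and slipped just under 2-fold without tcESC replicate 1 or without SCLC replicate 1, with a log2 fold change of 0.999 and 0.997. In todPGCLCs against tcESCs it was 0.93 ± 0.20 (edgeR adjusted p = 0.00351), not called, but called at 1.04 without tcESC replicate 2 and at 1.001 with library totals alone as the scale. Over the 8 libraries r between the log2 CPM of Cdkn2a and Cdkn2b was 0.930, over points that share 4 groups.

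Cdkn2c encodes p18Ink4c (chr4:109660876-109667189, minus strand) and had the lowest level per kb of the 5 inhibitors in all 8 libraries, by merged exons and by principal transcript. It had 1.77 and 1.47 CPM in tcESCs, 4.05 and 3.54 CPM in tc;Sf1ESCs, 4.75 and 4.02 CPM in SCLCs, and 1.49 and 1.09 CPM in todPGCLCs. The groups formed a low pair (todPGCLC and tcESC, overlapping, edgeR adjusted p = 0.228) and a high pair (tc;Sf1ESC and SCLC, overlapping, adjusted p = 0.283). Of the 10 genes, Cdkn2c alone was called between the ESC lines, 2.37-fold higher in tc;Sf1ESCs (log2 fold change 1.24 ± 0.22 SE, edgeR adjusted p = 0.00560). That call was lost in the test against a 2-fold change (glmTreat, adjusted p = 0.582), without tcESC replicate 2 (1.11, edgeR adjusted p = 0.0659) and without tc;Sf1ESC replicate 1 (1.15, adjusted p = 0.0569). It was 2.84-fold higher in SCLCs than in tcESCs (1.504 ± 0.22, edgeR adjusted p = 0.000593), 3.11-fold lower in todPGCLCs than in tc;Sf1ESCs (-1.64 ± 0.25, adjusted p = 0.000431) and 3.71-fold higher in SCLCs than in todPGCLCs (1.89 ± 0.25, adjusted p = 0.000144).

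A list of 8 known regulators of the Ink4-Arf locus was tested in full. In SCLCs 3 rose and 2 fell against tc;Sf1ESCs, and 1 rose and 2 fell against tcESCs. The leading rise in both was Ets1, an ETS factor known to activate p16Ink4a, at 17.8 CPM in SCLCs against 0.632 CPM in tc;Sf1ESCs (log2 fold change 4.86 ± 0.21 SE, edgeR adjusted p = 1.49e-06) and 0.758 CPM in tcESCs. The leading fall was Tbx3, a T-box repressor of the locus and part of the ESC network, from 293 CPM in tc;Sf1ESCs to 106 CPM (-1.42 ± 0.096, edgeR adjusted p = 1.22e-05). In todPGCLCs 1 rose and 2 fell against tcESCs, with Ets1 at 11.5 CPM (3.83 ± 0.26, edgeR adjusted p = 5.58e-06) and Tbx3 down from 388 to 39.1 CPM (-3.38 ± 0.13, adjusted p = 3.47e-07). Against tc;Sf1ESCs 3 rose and 3 fell, with the same leading genes (Ets1 4.09 ± 0.27, Tbx3 -2.99 ± 0.13). In SCLCs against todPGCLCs 2 were higher, led by Tbx3 (1.57 ± 0.12), and none lower, and between the ESC lines 2 fell, led by the T-box repressor gene Tbx2 from 1.45 to 0.351 CPM (-2.01 ± 0.37, edgeR adjusted p = 0.00620).

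Cdkn1a, the gene of p21 and the best-known p53 target (chr17:29090976-29100727, plus strand), has 2 RefSeq start sites 2790 bases apart. The promoters below (GRCm38.p6, RefSeq, plus strand, 250 bases before to 50 after the start) are shown because both Cdkn1a and Trp53 fell in SCLCs, whereas in todPGCLCs Cdkn1a fell and Trp53 was not called. Capitals mark every match, on either strand, to the TATA box as TATAAA, the GC box as GGGCGG, the E-box as CACGTG, the CCAAT box, the E2F site as any of TTTGGCGC, TTTCCCGC, TTTCGCGC and TTTGCCGC, or the 20-base p53 consensus with at most 1 base off, which was added to the search after the Cdkn1a sequence had been seen.
Cdkn1a upstream start (chr17:29090729-29091028): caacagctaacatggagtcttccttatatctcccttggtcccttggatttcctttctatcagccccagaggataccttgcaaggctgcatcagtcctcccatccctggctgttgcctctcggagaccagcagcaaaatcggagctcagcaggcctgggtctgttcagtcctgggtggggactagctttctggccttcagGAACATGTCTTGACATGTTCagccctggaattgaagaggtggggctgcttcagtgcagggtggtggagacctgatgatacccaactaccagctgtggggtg
Cdkn1a downstream start (chr17:29093519-29093818): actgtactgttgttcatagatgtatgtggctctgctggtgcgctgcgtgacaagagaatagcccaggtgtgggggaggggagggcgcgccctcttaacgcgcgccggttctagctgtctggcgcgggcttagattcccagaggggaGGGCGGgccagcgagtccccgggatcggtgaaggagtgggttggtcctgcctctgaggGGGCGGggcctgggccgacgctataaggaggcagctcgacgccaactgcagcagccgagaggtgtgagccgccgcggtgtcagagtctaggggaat
Trp53 (chr11:69580109-69580408): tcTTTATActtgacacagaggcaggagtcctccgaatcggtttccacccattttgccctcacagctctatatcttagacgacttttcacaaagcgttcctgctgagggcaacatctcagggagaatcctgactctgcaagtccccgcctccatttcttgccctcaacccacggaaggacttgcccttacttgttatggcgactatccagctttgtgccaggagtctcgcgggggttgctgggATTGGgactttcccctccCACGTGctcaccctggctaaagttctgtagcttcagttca

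The upstream Cdkn1a window held a p53 consensus match starting at base -51 and none of the other motifs. Such a match occurs in 0.0884% of the 32817 mouse promoters in the table, and no other promoter window of the 8 genes with an entry held one. The downstream window held GC boxes at -104 and -46, a motif present in 35.6% of promoters. The Trp53 window held an E-box at base 11 after the start (7.15% of promoters), a CCAAT box at -8 (37.4%) and a TATAAA match at -248 (13.6%), but no GC box or E2F spelling (2.26%). A match is a run of letters and not a measured site, and its absence speaks only for these windows. Ccnd1 and Ccnd2 have no entry in the table.

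Cdkn1a measured 282 and 289.7 CPM in tcESCs, 366 and 373 CPM in tc;Sf1ESCs, 115 and 116 CPM in SCLCs, and 119 and 101 CPM in todPGCLCs. Both ESC lines lay well above SCLCs and todPGCLCs, which overlapped with each other in CPM. After TMM scaling the means were 120.4 ± 1.92 in SCLCs and 104.6 ± 11.9 in todPGCLCs (SD, n = 2), and the difference passed the adjusted p limit of edgeR's test under the fold limit (log2 fold change 0.20 ± 0.080 SE, adjusted p = 0.0474), with 0.085 without todPGCLC replicate 2 and 0.07 with library totals alone as the scale. In SCLCs Cdkn1a fell 3.09-fold against tc;Sf1ESCs (log2 fold change -1.63 ± 0.058 SE, edgeR adjusted p = 7.40e-07) and 2.37-fold against tcESCs (-1.24 ± 0.057, adjusted p = 2.06e-06). In todPGCLCs it fell 3.57-fold against tc;Sf1ESCs (-1.83 ± 0.082, edgeR adjusted p = 5.86e-07) and 2.73-fold against tcESCs (-1.45 ± 0.081, adjusted p = 2.02e-06). It was 1.30-fold higher in tc;Sf1ESCs than in tcESCs (0.38 ± 0.056, edgeR adjusted p = 0.00259), which is under the fold limit.

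Cdkn1b encodes p27, the inhibitor best known for quiescence (chr6:134920401-134925513, plus strand). It stood at 52.3 and 52.0 CPM in tcESCs, 52.7 and 51.0 CPM in tc;Sf1ESCs, 92.5 and 71.5 CPM in SCLCs, and 19.1 and 17.4 CPM in todPGCLCs. The ESC lines overlapped, SCLCs lay above them and todPGCLCs below. The rise in SCLCs was 1.64-fold against tc;Sf1ESCs (log2 fold change 0.71 ± 0.12 SE, edgeR adjusted p = 0.00112) and against tcESCs (0.72 ± 0.12, adjusted p = 0.00109), and was not called. In todPGCLCs Cdkn1b fell 3.003-fold against tcESCs (-1.59 ± 0.12, edgeR adjusted p = 1.08e-05) and 3.02-fold against tc;Sf1ESCs (-1.59 ± 0.12, adjusted p = 8.55e-06), and it was 4.92-fold higher in SCLCs than in todPGCLCs (2.30 ± 0.12, adjusted p = 7.92e-07).

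Trp53 encodes p53 (chr11:69580359-69591873, plus strand). It measured 362 and 348.5 CPM in tcESCs, 372 and 367 CPM in tc;Sf1ESCs, 83.5 and 60.1 CPM in SCLCs, and 457 and 473 CPM in todPGCLCs. SCLCs stood apart from the other 3 groups, among which no neighbours in the order of levels differed beyond the adjusted p limit. Trp53 fell 4.98-fold in SCLCs against tc;Sf1ESCs (log2 fold change -2.32 ± 0.14 SE, edgeR adjusted p = 7.62e-06), 4.74-fold against tcESCs (-2.25 ± 0.14, adjusted p = 8.47e-06) and 5.91-fold against todPGCLCs (-2.56 ± 0.13, adjusted p = 6.42e-07). The difference of todPGCLCs from tcESCs was 0.32 ± 0.12 (edgeR adjusted p = 0.0517). The pseudogene Trp53-ps held at most 13 counts in any library.

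Mdm2 (chr10:117688875-117710758, minus strand) varied little. It had 260 and 249 CPM in tcESCs, 226 and 224 CPM in tc;Sf1ESCs, 167 and 193 CPM in SCLCs, and 248 and 218 CPM in todPGCLCs. The tc;Sf1ESC and todPGCLC libraries overlapped and SCLCs were lowest. The widest difference was 1.35-fold, lower in SCLCs than in tcESCs (log2 fold change -0.43 ± 0.081 SE, edgeR adjusted p = 0.00204), where Trp53 had -2.25 in the same libraries. Per kb of principal transcript, the mean Trp53 level exceeded that of Mdm2 in every group but SCLCs, where both libraries had more Mdm2 (53.9 and 62.3 CPM per kb) than Trp53 (47.2 and 33.9 CPM per kb).

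Of 16 regulators of p53, 15 were tested among the ESC lines and SCLCs and all 16 with todPGCLCs. In SCLCs 2 rose and 4 fell against tc;Sf1ESCs, and 2 rose and 5 fell against tcESCs. Trp73, the gene of the p53 family member p73, fell from 19.0 CPM in tc;Sf1ESCs and 25.6 CPM in tcESCs to 1.44 CPM (log2 fold change -3.68 ± 0.25 SE, edgeR adjusted p = 1.22e-05, and -4.09 ± 0.25, adjusted p = 7.11e-06). The largest rises were Hipk2, a kinase of p53, against tc;Sf1ESCs (1.64 ± 0.12, edgeR adjusted p = 1.47e-05) and Ppm1d, a phosphatase that turns p53 off, against tcESCs (1.21 ± 0.11, adjusted p = 5.18e-05). In todPGCLCs 1 was called higher against each ESC line, Trp63, the third gene of the p53 family, at 1.49 and 2.03 CPM in the todPGCLC libraries. It had 41 and 54 counts there and 1 to 11 in the other libraries, so it passed the filter on low counts only through todPGCLCs. Its calls are not read as a result. There 1 fell, Trp73 at 5.70 CPM (-2.24 ± 0.23, edgeR adjusted p = 4.74e-05 against tcESCs, and -1.83 ± 0.22, adjusted p = 0.000127 against tc;Sf1ESCs). In SCLCs 4 were lower than in todPGCLCs, Trp63 among them, and none higher, with Trp73 at the largest fall of those whose mean level reached 1 CPM (-1.86 ± 0.28, edgeR adjusted p = 0.000310). Between the ESC lines none of 15 was called by edgeR or DESeq2, with 6 at an unadjusted and 4 at an adjusted p under 0.05 in edgeR's test without the fold limit.

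The 25 p53 target genes on a list drawn from general knowledge of the pathway were tested in full, without Cdkn1a and Mdm2, which are described above. In SCLCs 9 fell (Gdf15, Tigar, Plk2, Trp53inp1, Aen, Zmat3, Ei24, Perp and Bax) and 1 rose against tc;Sf1ESCs, 36.0% lower beside 18.1% of all genes (median log2 fold change -0.56, against 0.02 over all genes) and 9 fell and 2 rose against tcESCs (-0.57, against 0.05). The largest fall was that of Gdf15, a stress-induced cytokine gene, from 19.5 CPM in tc;Sf1ESCs to 0.961 CPM (-4.29 ± 0.21 SE, edgeR adjusted p = 2.40e-06), and against tcESCs that of Tigar, a regulator of glycolysis, from 166 to 19.3 CPM (-3.04 ± 0.090, adjusted p = 3.70e-07). Rises went to Gadd45a, a growth arrest gene, against tc;Sf1ESCs (1.09 ± 0.15, edgeR adjusted p = 0.000457) and to Btg2, an antiproliferative gene, against tcESCs (1.24 ± 0.062, adjusted p = 3.08e-06). The other of the 2 was the death receptor gene Fas, with 26 and 15 counts in SCLCs and 7 to 11 in the ESC libraries, which passed the filter on low counts only through SCLCs. The call of Fas is not read as a result. In todPGCLCs 3 rose and 3 fell against tcESCs, among them Pmaip1, the gene of the BH3-only protein NOXA, up from 12.0 to 47.5 CPM (1.91 ± 0.15, edgeR adjusted p = 1.20e-05) and Tigar down to 49.9 CPM (-1.81 ± 0.083, adjusted p = 7.78e-07). Against tc;Sf1ESCs 3 rose and 6 fell, led by Gadd45a (2.58 ± 0.13, edgeR adjusted p = 1.12e-06) and Gdf15 (-2.50 ± 0.25, adjusted p = 3.56e-05). In SCLCs against todPGCLCs 2 were higher and 6 lower, led by Btg2 (1.58 ± 0.091, edgeR adjusted p = 1.17e-06) and Gdf15 (-1.80 ± 0.31, adjusted p = 0.000704). Between the ESC lines 1 rose, Gdf15 (1.56 ± 0.17, edgeR adjusted p = 0.000732), and 2 fell, led by Rrm2b, a ribonucleotide reductase subunit gene (-1.18 ± 0.10, adjusted p = 0.000412).

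The 17 proliferation markers were set beside these genes as a readout that no member belongs to. In SCLCs 5 fell and none rose against either ESC line, with medians of -0.42 against tc;Sf1ESCs and -0.44 against tcESCs. The 5 against tc;Sf1ESCs, 29.4% of the list beside 18.1% of all genes, were the replication licensing genes Mcm2, Mcm3, Mcm5 and Mcm7 and the polymerase clamp gene Pcna, and against tcESCs Mcm4 stood in place of Mcm5. The leading falls were Mcm3 from 626 CPM in tc;Sf1ESCs to 213 CPM (log2 fold change -1.51 ± 0.087 SE, edgeR adjusted p = 5.69e-06) and Mcm2 from 634 CPM in tcESCs to 196 CPM (-1.63 ± 0.10, adjusted p = 7.62e-06). None of the other 10 markers (all but the MCM genes and Pcna) was called in SCLCs against tc;Sf1ESCs, and 5 of them passed the adjusted p limit of edgeR's test without the fold limit, which 72.6% of all genes passed. Of these, Mki67 was higher, at 401 CPM in both SCLC libraries against 246 and 242 CPM (0.77 ± 0.071), and Ccnb1 (-0.48 ± 0.092), Cenpa (-0.42 ± 0.13), Birc5 (-0.33 ± 0.062) and Plk1 (-0.27 ± 0.059) were lower. None of the 17 was called in todPGCLCs against tcESCs by edgeR or DESeq2, where the median was -0.26 and 12 had an unadjusted p under 0.05 in edgeR's test, all 12 also past the adjusted p limit without the fold limit (3 higher and 9 lower, beside 62% of all genes). Against tc;Sf1ESCs 1, Mcm5, fell (-1.11 ± 0.067, edgeR adjusted p = 2.38e-06). Of the 10 later markers 5 were higher (Aurkb, Top2a, Bub1, Mki67 and Ccnb2) and 3 lower (Birc5, Plk1 and Ccnb1) past the adjusted p limit without the fold limit, beside 65.2% of all genes. In SCLCs against todPGCLCs 1 was lower, Mcm3 (-1.49 ± 0.082, edgeR adjusted p = 9.08e-07). None of the 17 was called between the ESC lines by either tool. Of these, 6 were at an unadjusted and 4 at an adjusted p under 0.05.

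**Figure D3:**
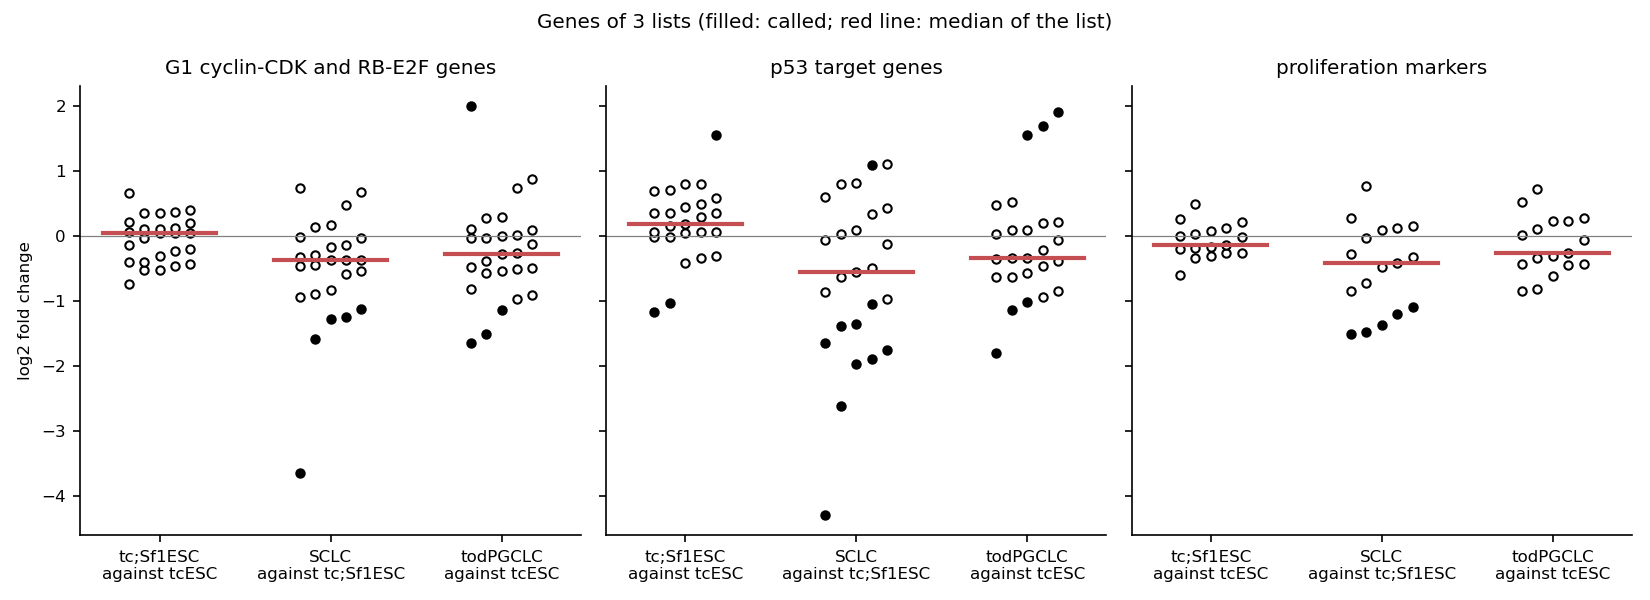
Log2 fold change of each tested gene on the lists of G1 cyclin-CDK and RB-E2F genes (26), p53 target genes (25) and proliferation markers (17) in 3 comparisons, with filled points for called genes and a red line at the median of the list. In SCLCs against tc;Sf1ESCs the medians lie at -0.37, -0.56 and -0.42 with 5, 9 and 5 genes called lower, and Cdk6 (-3.65) and Gdf15 (-4.29) are the lowest points.

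Signals known to act on Ccnd1 and Ccnd2 were followed with lists of ERK, Wnt and MYC genes. Of 13 ERK output genes, 4 rose and 4 fell in SCLCs against tc;Sf1ESCs and 4 rose and 6 fell against tcESCs. The immediate early gene Egr1 rose from 0.413 and 0.821 CPM in the ESC lines to 101 CPM (log2 fold change 7.97 ± 0.18 SE, edgeR adjusted p = 1.29e-07, and 6.99 ± 0.16, adjusted p = 1.48e-07), whereas Etv5, an ETS factor gene, fell from 300.5 CPM in tc;Sf1ESCs to 44.3 CPM (-2.71 ± 0.29, adjusted p = 0.000116). In todPGCLCs 5 rose and 1 fell against tcESCs and 6 rose and none fell against tc;Sf1ESCs, with Egr1 at 50.8 CPM (5.87 ± 0.29, edgeR adjusted p = 1.06e-06, and 6.85 ± 0.33, adjusted p = 7.70e-07). The ESC medium held a MEK inhibitor, and SCLCs and todPGCLCs were dissociated for sorting. The part of medium and handling in these values was not tested. In SCLCs against todPGCLCs 3 were higher, led by Phlda1 (1.39 ± 0.17), and 7 lower, led by Etv5 (-3.51 ± 0.27), and between the ESC lines 3 fell, led among those with a mean of at least 1 CPM by Spry4 (-1.39 ± 0.17), a feedback inhibitor gene.

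Of 9 canonical Wnt output genes, 5 rose and 1 fell in tc;Sf1ESCs against tcESCs, led by Lef1, a TCF/LEF factor gene, from 1.72 to 34.5 CPM (log2 fold change 4.33 ± 0.30 SE, edgeR adjusted p = 0.000163). The 1 called lower was Lgr5, with 4 and 5 counts in tcESCs, none in tc;Sf1ESCs, and 88 and 64 in SCLCs, the group through which alone it passed the filter on low counts among these 6 libraries. Its calls here are not read as a result. In SCLCs 1 was called higher, again Lgr5, and 5 fell against tc;Sf1ESCs, with Sp5, a direct Wnt target gene, down from 73.2 to 0.493 CPM (-7.17 ± 0.18, edgeR adjusted p = 2.04e-07). Against tcESCs 4 were called higher, Lgr5 among them, and 4 lower, and where the mean level reached 1 CPM the largest rise was that of Rnf43 (2.91 ± 0.20) and the largest fall that of Sp5 (-5.31 ± 0.18). In todPGCLCs 4 rose and 1 fell against tcESCs, led by Lef1 (4.93 ± 0.28) and Sp5 (-1.14 ± 0.24), and 2 rose and 4 fell against tc;Sf1ESCs, led by Lgr5, which had no count in tc;Sf1ESCs and was at least 18.9-fold higher in todPGCLCs over the mean of both libraries (14 and 99 counts, at least 4.54-fold and 33.3-fold by library), and by Sp5 (-3.01 ± 0.25). In SCLCs against todPGCLCs 1 was higher, Rnf43 (2.99 ± 0.22), and 5 lower, led by Notum (-4.28 ± 0.23).

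Of 10 MYC network genes, Mxd4, a MYC antagonist gene, led the rises in SCLCs against tc;Sf1ESCs (7.56 to 30.4 CPM, log2 fold change 2.06 ± 0.19 SE, edgeR adjusted p = 5.19e-05) and tcESCs (3.65 ± 0.21, adjusted p = 5.49e-06), and Mycl led the falls (-2.85 ± 0.24 and -1.52 ± 0.24). The counts were 1 higher and 1 lower against tc;Sf1ESCs and 2 higher and 3 lower against tcESCs. In todPGCLCs against tcESCs Mxd4 was higher (1.49 ± 0.21, edgeR adjusted p = 0.000285) and Myc itself lower, at 6.75 against 21.4 CPM (-1.74 ± 0.38, adjusted p = 0.00380), and no gene of the network was called against tc;Sf1ESCs by edgeR or DESeq2, with 4 at an unadjusted p under 0.05 in edgeR's test, all 4 also past the adjusted p limit without the fold limit. SCLCs exceeded todPGCLCs in Mxd4 (2.15 ± 0.18) and had less Mycl (-1.97 ± 0.26). Between the ESC lines 2 rose, led by Mxd4 (1.58 ± 0.21), and none fell.

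Of the 10 genes, 1 was called in tc;Sf1ESCs against tcESCs, where 11.7% of all genes tested were called, 6.04% higher and 5.62% lower. Without the fold limit 6 passed the adjusted p limit, all of them higher in tc;Sf1ESCs (Ccnd1, Ccnd2, Cdkn1a, Cdkn2a, Cdkn2b and Cdkn2c), beside 32.7% of all genes in either direction and 16.7% in the higher direction. In SCLCs against tc;Sf1ESCs 4 of 10 were called, beside 42.2% of all genes, 1 of them higher (24.1% of all genes) and 3 lower (18.1%). In SCLCs against tcESCs 7 of 10 were called, beside 42.7%, of which 4 were higher (24.3%) and 3 lower (18.3%). In todPGCLCs against tcESCs 4 of 10 were called, beside 29.4%, with 1 higher (18.1%) and 3 lower (11.2%). In todPGCLCs against tc;Sf1ESCs 5 of 10 were called, beside 32.7%, with 1 higher (19.4%) and 4 lower (13.3%). Between SCLCs and todPGCLCs 5 of 10 were called, beside 38% of all genes, 3 of them higher in SCLCs (19.5%) and 2 lower (18.5%). Without the fold limit 7 and 10 of the 10 passed in SCLCs against tc;Sf1ESCs and tcESCs (72.6 and 72.9% of all genes), 6 and 6 in todPGCLCs against tcESCs and tc;Sf1ESCs (62 and 65.2%) and 8 between SCLCs and todPGCLCs (69.7%). The comparisons of one group with both ESC lines, and of both derived groups with one ESC line, use the same libraries on one side and are not independent.

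**Figure D4:**
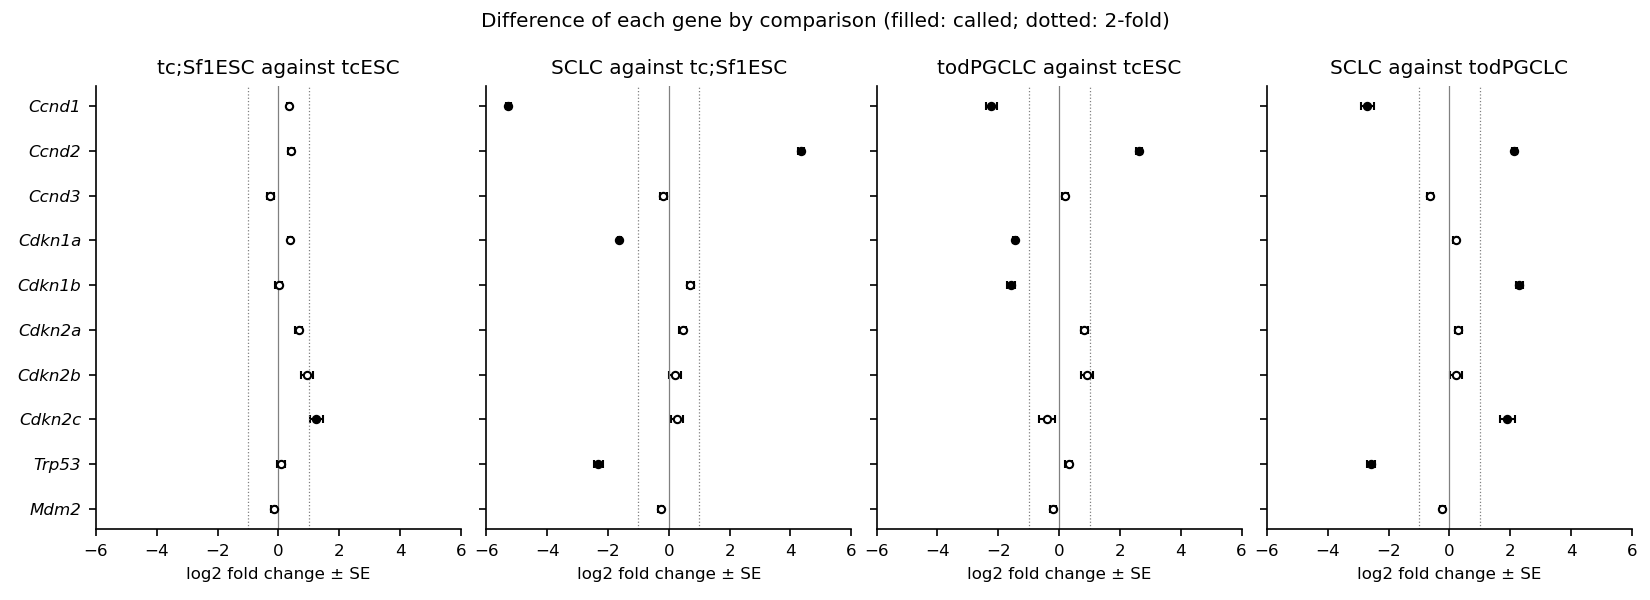
Log2 fold change of each of the 10 genes with its SE (horizontal bars, often shorter than the symbol) in 4 comparisons, with filled points for called genes and dotted lines at 2-fold. In SCLCs against tc;Sf1ESCs, Ccnd1 (-5.27), Trp53 (-2.32) and Cdkn1a (-1.63) lie on the left and Ccnd2 (4.34) on the right, and in todPGCLCs against tcESCs Ccnd1 (-2.23), Cdkn1b (-1.59) and Cdkn1a (-1.45) lie on the left and Ccnd2 (2.62) on the right.

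The chromosome of a gene moved with some of these values. On chromosome 6, which carries Ccnd2 and Cdkn1b, the median log2 fold change over 776 genes was -0.31 in tc;Sf1ESCs against tcESCs, where Ccnd2 stood at 0.41 and Cdkn1b at 0.00. Against tcESCs this median was also -0.30 in SCLCs and -0.29 in todPGCLCs. On chromosome 11, which carries Trp53, the median over 1344 genes was 0.52 in todPGCLCs against tcESCs and 0.47 against tc;Sf1ESCs, so the value of 0.32 for Trp53 in todPGCLCs against tcESCs lay 0.20 below its own chromosome on the log2 scale. In SCLCs against todPGCLCs the chromosome 11 median was -0.53 and Trp53 lay at -2.56. The part of these shifts in the values of single genes was not tested.

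The genes whose log2 CPM followed the D cyclins and Cdkn1a most closely over the 8 libraries were searched among 11154 genes that averaged 5 CPM or more. For Ccnd1 they were Tamm41, Vdac1 and Mrps2, all with r = 0.998, and 714 genes had r above 0.95. For Ccnd2 they were Cotl1, Prdx4 and Coq2, all with r = 0.999, among 711 genes above 0.95. For Cdkn1a they were Atg14 (r = 0.999), Mapkapk3 (0.997) and Phyh (0.996), among 336 genes above 0.95, and for Ccnd3 they were Spidr (r = 0.994), Clgn (0.989) and Ppp1cb (0.988), among 97. The 8 points share 4 groups.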

How the data were processed

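The authors made poly-A, strand-specific libraries, read as 50 bp pairs, filtered the reads with Trim Galore and aligned them to GRCm38 with STAR 2.4.0. They deposited raw counts per gene for each library, and the submitters' processing notes also name Picard, HTSeq and DESeq2. The annotation release and the strand setting of the counting are not given in the sources used here, so reads in exons shared with a gene on the opposite strand may not be assigned fully. Rows that name no gene (no feature, ambiguous, not unique) held 35.6 to 41.6% of each file's total and were left out.

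Tests were run with edgeR 4.0.16 and limma 3.58.1 (R 4.3.3). After TMM normalization, 16481 genes whose mean count exceeded 10 were fitted over the tcESC, tc;Sf1ESC and SCLC libraries (6 in all), and 16707 over all 8 for todPGCLCs. Quasi-likelihood tests were adjusted by Benjamini-Hochberg over all genes tested, and a gene was called with a fold change above 2 and an adjusted p under 0.05. CPM use library totals on genes, and are given as levels of each library. Genes named are the 10 members, Nr5a1, from each list the called gene with the largest rise and the largest fall per comparison at a mean of at least 1 CPM, and the 3 genes most like Ccnd1, Ccnd2, Ccnd3 and Cdkn1a at a mean of at least 5 CPM. Other called list genes, the later-phase markers, and Trp63, Fas and Lgr5 where they fall under that level, were named after their values had been seen, and LTO1, Bysl and the pseudogenes were added for the exons or sequence that they share with members. The members and the lists were chosen with earlier results of these data known. Gene names and positions are from GENCODE M21, which names 45229 of the 46078 IDs, and promoters from RefSeq (GRCm38.p6), which has 8 of the 10 members. The tests were tested on simulated data. The alternatives tried were RLE size factors, library totals, other filters, other sets of libraries, DESeq2 1.42.0, a test against a 2-fold change, no fold limit, a block for the replicate number, and fits that each lacked 1 library. Lengths of principal transcripts were added as an alternative after the data had been seen. The labels give same-numbered replicates no link beyond the number.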

Additional observations from a re-analysis of the deposited data

How the results depend on the processing

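Every alternative kept the count of the 10 genes called within 1.5 times of that reported, except in tc;Sf1ESCs against tcESCs, where it was 0 in the test against a 2-fold change (glmTreat) and 0 to 1 with a library left out, and where the fold limit was dropped, which gave 6 there, 7 in SCLCs against tc;Sf1ESCs and 8 in SCLCs against todPGCLCs. Over all genes, dropping the fold limit gave 5388 in tc;Sf1ESCs against tcESCs, 11973 and 12007 in SCLCs against tc;Sf1ESCs and tcESCs, 10353 and 10890 in todPGCLCs against tcESCs and tc;Sf1ESCs, and 11640 in SCLCs against todPGCLCs. The test against a 2-fold change gave 594 genes in tc;Sf1ESCs against tcESCs (1922 as reported) and 3078 in todPGCLCs against tcESCs. With a library left out, tc;Sf1ESCs against tcESCs gave 1119 to 2304 genes, the low end where 1 of the ESC libraries compared was left out and the lone library of that group was assumed to vary like the others. Of 990 values for single genes, 954 kept their direction and call, 7 lost the call (Cdkn2c in tc;Sf1ESCs against tcESCs and Cdkn2a and Cdkn2b in SCLCs against tcESCs, in the test against a 2-fold change and, for Cdkn2c and Cdkn2b, with certain libraries left out), 19 gained it and 10 changed sign. Those that changed sign were near 0. They were Cdkn1b in tc;Sf1ESCs against tcESCs (0.00 as reported), at -0.0072 with RLE size factors, -0.0087 with library totals, -0.0072 with DESeq2, and -0.0096 to 0.027 with a library left out. In todPGCLCs against tc;Sf1ESCs, Cdkn2b (-0.016 as reported) was 0.072 with library totals and -0.074 to 0.0025 with a library left out, and Mdm2 (-0.039) was 0.049 with library totals and -0.13 to 0.058 with a library left out. Library totals in place of TMM moved the median of all genes by -0.13 in SCLCs against todPGCLCs.

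The correlations of the deviations of same-numbered libraries ran from -0.026 to 0.062, so the replicate numbers showed no pairing by this measure. Groups of 2 give a single deviation each, so these values cannot decide whether a culture or date was shared. With the replicate number as a block, 1918 genes were called in tc;Sf1ESCs against tcESCs and 6958 in SCLCs against tc;Sf1ESCs, and 1854 and 6920 of these had been called without the block, and no count of the 10 genes changed by over 1.5 times. Groups of 2 limit what small differences could be shown.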
